A study of Homo sapiens with 12 samples.

Results

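The expression of 10 mucin and goblet cell secretory genes was measured in 4 HCT116 lines with and without re-expression of the transcription factors EHF and CDX1. The members were chosen by name, as MUC1, MUC2, MUC5AC, MUC5B, MUC12, MUC13, TFF1, TFF3, AGR2 and FCGBP, and each matched 1 of the 28395 genes of the count table by its symbol. Of the 10 genes, 9 reached 0.5 CPM (read counts scaled by library size alone) in at least 3 of the 12 libraries and were among the 15853 genes tested, while TFF1 did not. The CPM levels given below were scaled by library size and TMM factor. AGR2 and TFF3 reached this level only in HCT116-EHF+CDX1 libraries. MUC5AC reached it in the 3 HCT116-CDX1 libraries and 1 HCT116-EHF+CDX1 library, and would not have passed without the former. These genes thus entered the tests through the line in which they were high.

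HCT116 is a poorly differentiated human colorectal cancer cell line, and polyA RNA was sequenced from 3 libraries of each of 4 stable lines grown in the same medium. The control line, HCT116-EV, carried empty pcDNA, and HCT116-EHF carried an EHF plasmid, both selected with geneticin. In HCT116-CDX1 the factor came from a retrovirus with GFP, on which the cells were sorted. HCT116-EHF+CDX1 had both constructs and consisted of geneticin-resistant clones made from the CDX1 line, according to the study's methods. A line with an empty retrovirus was not analysed here, so the effect of transduction and sorting cannot be told apart from that of CDX1. Geneticin selection of clones is not described for HCT116-CDX1 cells. Where HCT116-EHF+CDX1 and HCT116-CDX1 cells are compared, the effect of that selection cannot be told apart from that of EHF. Nothing in the labels says that libraries of a line came from separate cultures, and the p-values below measure only the spread between these libraries, which may be technical. The paper's legend for its RNA-seq clustering refers to biological replicates, though to fewer than the 3 libraries per line used here.

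Mucus is the secreted and cell-bound gel that separates the intestinal epithelium from the lumen. Goblet cells assemble gel-forming mucins, mainly MUC2 in the colon, into disulfide-linked polymers in the endoplasmic reticulum, which needs the protein disulfide isomerase AGR2, and release them with trefoil peptides and the mucin-binding protein FCGBP. Transmembrane mucins such as MUC1, MUC12 and MUC13 instead form the glycocalyx on the apical surface of absorptive cells, whereas MUC5AC and TFF1 are typical of the surface mucous cells of the stomach.

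Total counts lay between 13523007 and 74186741 per library, and 3 counts, the upper limit that a count of 0 allows, corresponded to between 0.0375 and 0.207 CPM. These limits and the counting intervals below cover counting error only. The labels were checked against the transgenes. Mean EHF was 299 ± 54.4 CPM for HCT116-EV and 19312 ± 305 CPM for HCT116-EHF. It was 12.3 ± 0.603 CPM with CDX1 alone and 18708 ± 1433 CPM with both factors (SD, n = 3 per line). Mean CDX1 was 525 ± 35.8 CPM with CDX1 alone and 5419 ± 277 CPM with both factors (SD, n = 3 per line), and at most 4 reads were counted in any library of the other lines. The dose of CDX1 thus differed between its lines, and EHF lay below the empty vector level in the CDX1 line. The epithelial marker EPCAM was present in all lines, with means from 265 CPM in HCT116-EV to 491 CPM in HCT116-CDX1 cells, and the leukocyte gene PTPRC had at most 6 reads in any library. The 7 epithelial identity genes, EPCAM included, summed to 4962 to 5744 CPM with the empty vector, 4506 to 4649 with EHF, 2718 to 3239 with CDX1 and 4851 to 5082 with both factors. With CDX1 alone 1 of these genes was called higher and 3 lower, beside 44.6% of all genes (median log2 fold change -0.86, or -0.17 without HCT116-EV replicate 3). Of 11 fibroblast, endothelial and immune markers, between 1 and 5 were at 0 reads in each library. Summed over the markers, HCT116-EV libraries had 34.0 to 77.6 CPM, HCT116-EHF 40.5 to 45.3, HCT116-CDX1 170 to 222 and HCT116-EHF+CDX1 56.3 to 57.4, mostly from COL1A1, and its part in the results was not tested.

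Replicate 3 of HCT116-EV stood apart from replicates 1 and 2. Per degree of freedom, the chi-square of the counts was 323 and 294 for replicate 3 against the other two libraries, which differed from each other by only 4.18, and at most 47.2 within any other line. Of the 9 tested members, 6 had their highest HCT116-EV level in this library, and values without replicate 3 are given beside those comparisons with HCT116-EV that change with it.

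Across the lines, the members split into groups that did not move together. MUC13, AGR2 and TFF3 were highest in HCT116-EHF+CDX1 cells, with AGR2 and TFF3 near 0 reads in the other lines. MUC12 and MUC5AC were highest in HCT116-CDX1 cells and lower again in the line with both factors. MUC5B was highest in HCT116-EV cells, MUC1 was lower in HCT116-CDX1 cells than in the other lines, and TFF1 was at or near 0 reads throughout. In bulk RNA, fewer cells with a transcript and less of it per cell cannot be told apart. The plot of the levels by library shows these groups.

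**Figure D1:**
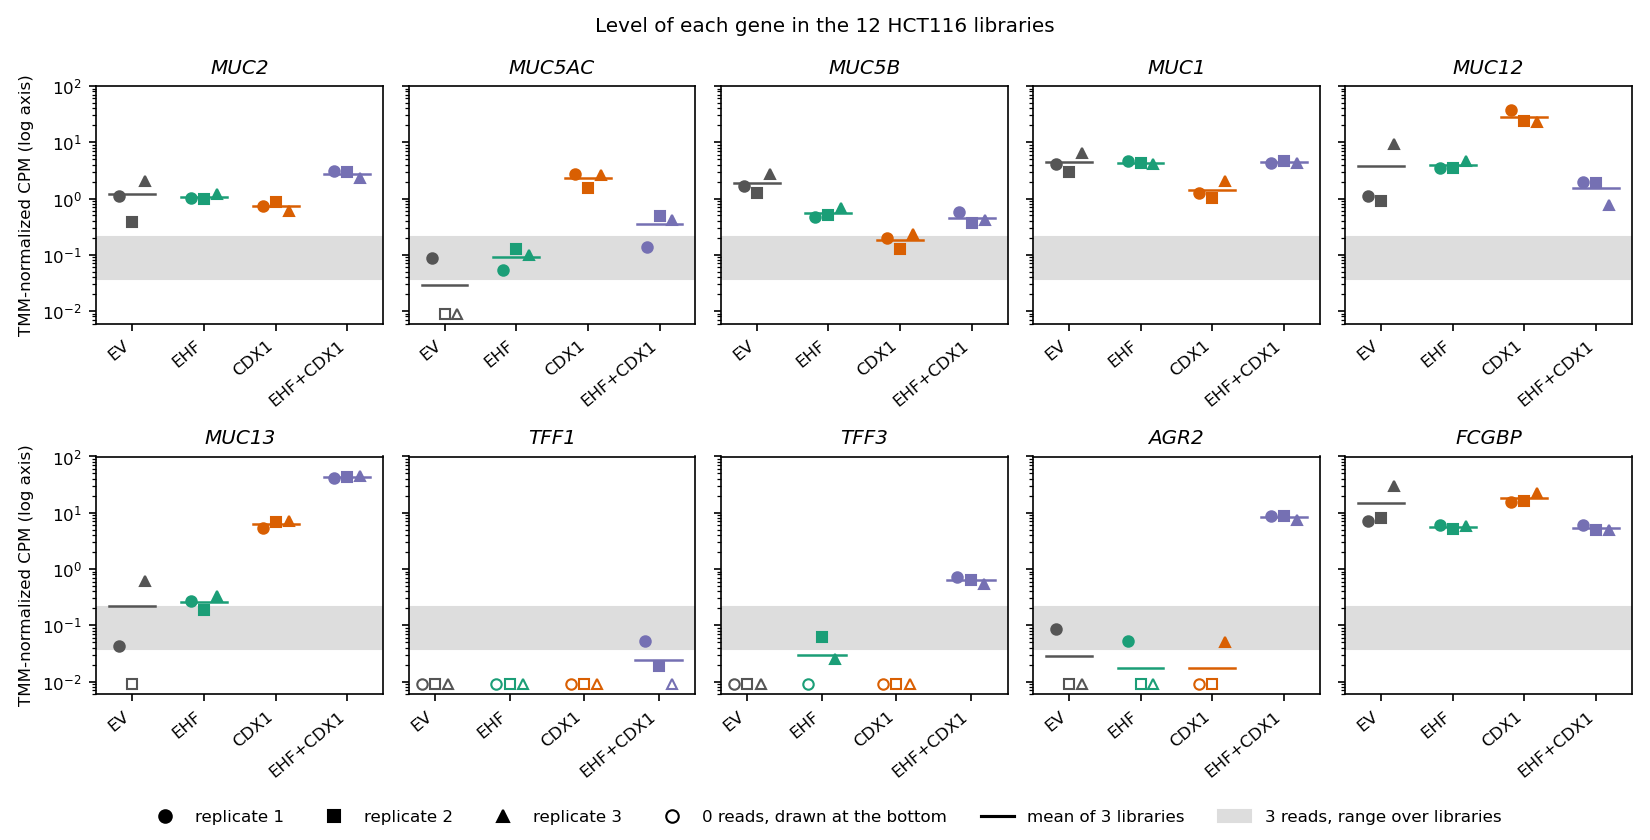
TMM-normalized CPM of each gene (log axis) in the 12 libraries, with points for libraries, shapes for replicate numbers, lines for the mean of 3 libraries, open symbols at the bottom for 0 reads and a grey band for the level of 3 reads over the libraries (0.0375 to 0.207 CPM). MUC13 sits between 41.1 and 44.4 CPM and AGR2 between 7.39 and 8.87 CPM in HCT116-EHF+CDX1 libraries, whereas MUC12 is highest in HCT116-CDX1 libraries.

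The sequences upstream of 3 members with different patterns are shown here, since EHF and CDX1 are DNA-binding factors. EHF belongs to the ETS family, whose members bind a GGAA core, and CDX1 is a homeodomain factor of the caudal family that binds T-rich or A-rich sites. RefSeq (GRCh38.p14) gave a promoter for 6 of the 10 members, MUC1, MUC2, MUC12, MUC13, AGR2 and FCGBP. The 250 bases before the annotated start are printed on the gene's strand, with matches to GGAAG (ETS) and TTTAT (CDX), or their reverse complements CTTCC and ATAAA, in capitals. No base was shared by both kinds of match. MUC13 and AGR2 are shown because they rose in HCT116-EHF+CDX1 cells, and MUC12 because it rose with CDX1 alone and did not pass the test with both factors.
MUC13, chr3:124934752-124935001, minus strand: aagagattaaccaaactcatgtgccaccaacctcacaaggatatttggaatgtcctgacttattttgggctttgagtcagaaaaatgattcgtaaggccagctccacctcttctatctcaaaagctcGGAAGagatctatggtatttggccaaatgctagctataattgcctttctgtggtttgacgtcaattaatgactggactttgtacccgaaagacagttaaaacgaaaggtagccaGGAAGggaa
AGR2, chr7:16805000-16805249, minus strand: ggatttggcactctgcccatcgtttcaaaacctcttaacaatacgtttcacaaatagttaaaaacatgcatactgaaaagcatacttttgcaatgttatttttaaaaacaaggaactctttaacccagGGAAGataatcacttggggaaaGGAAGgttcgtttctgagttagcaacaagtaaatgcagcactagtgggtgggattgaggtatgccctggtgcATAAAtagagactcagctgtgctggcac
MUC12, chr7:100969315-100969564, plus strand: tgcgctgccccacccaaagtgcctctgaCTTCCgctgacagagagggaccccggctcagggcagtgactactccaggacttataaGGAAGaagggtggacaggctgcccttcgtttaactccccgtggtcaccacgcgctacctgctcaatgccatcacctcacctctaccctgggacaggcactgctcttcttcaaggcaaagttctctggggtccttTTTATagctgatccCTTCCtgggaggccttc

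The MUC13 window held 2 GGAAG matches, at bases -123 to -119 and -9 to -5 from the start, and no TTTAT match. In the AGR2 window, 2 GGAAG matches lay at -122 to -118 and -100 to -96, and a CATAAA match, the reverse complement of TTTATG, lay at -29 to -24. MUC12 had 3 ETS matches and 1 TTTAT match at -31 to -27, and 1 of its ETS matches extended to ACTTCC, the reverse complement of GGAAGT. MUC2 held 1 ETS and 1 CDX match, as did each of the 2 windows of MUC1, and FCGBP held neither. The CDX match of MUC2 also extended to CATAAA, at -176 to -171, while those of MUC1 did not. These letters are common. GGAAG stood in 65.1% and TTTAT in 32.7% of 35116 RefSeq windows of 250 bases, and the longer GGAAGT and TTTATG stood in 19.5% and 9.64%. A match describes the letters of the window and not a site bound by either factor.

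With both factors, 4 members rose and 1 fell compared to HCT116-EV cells by the edgeR test against a 1.5-fold change at an adjusted p of 0.05, of 9 tested. MUC13, AGR2, TFF3 and MUC5AC rose and MUC5B fell. The same test called 10.4% of all genes, 7.3% higher and 3.13% lower. Leaving out AGR2 and TFF3, which were tested only because of this line, 2 of the 7 others rose and 1 fell. The median log2 fold change was 1.16 over the 9 members, -0.06 over these 7 and -0.03 over all genes. Leaving out HCT116-EV replicate 3, the counts over the 9 were again 4 and 1, with MUC2 called in place of MUC5AC, beside 15.6% of all genes, and the median was 1.89. With EHF alone, 1 member fell and 0 rose by edgeR, where 8.33% of all genes were called, 5.68% higher and 2.65% lower. In that comparison 2 members passed the edgeR test against no change (30.1% of all genes) and 0 were called by DESeq2. When HCT116-EV replicate 3 was left out the direction turned, with 2 members higher (MUC12 and MUC13) and 0 lower beside 13.1% of all genes. With CDX1 alone, 3 members rose and 2 fell, in a comparison that called 44.6% of all genes, 21.3% higher and 23.3% lower, so the share of members called was near that of all genes. MUC13, MUC12 and MUC5AC rose and MUC5B and MUC1 fell, and MUC5AC was tested only because of this line. Leaving it out, 2 of the 8 others rose and 2 fell. Over the 9 members without HCT116-EV replicate 3, 4 rose and 2 fell, beside 51.1% of all genes.

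MUC13, a transmembrane mucin of the intestinal surface (Entrez 56667, chromosome 3, 124905442 to 124934751 on GRCh38.p14), had the highest level of the 10 genes in the line with both factors. Its level was 0.0431, 0 and 0.625 CPM in the HCT116-EV libraries, which held 1, 0 and 34 reads. In HCT116-EHF libraries it was 0.266, 0.189 and 0.337 CPM. With CDX1 alone it was 5.43, 6.75 and 7.02 CPM, and with both factors 41.1, 43.3 and 44.4 CPM. The 2 lines with CDX1 lay above all other libraries and did not overlap each other, while HCT116-EV and HCT116-EHF libraries overlapped. Compared to HCT116-EV cells, the log2 fold change was 4.30 (SE 0.49, edgeR adjusted p = 2.17e-05) in HCT116-CDX1 and 7.05 (SE 0.50, edgeR adjusted p = 1.66e-06) in HCT116-EHF+CDX1 cells. The line with both factors was also above HCT116-CDX1 cells, by a log2 fold change of 2.75 (SE 0.37, edgeR adjusted p = 0.000123), and above HCT116-EHF cells, by 7.27 (SE 0.50, edgeR adjusted p = 3.37e-06).

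The difference of MUC13 between HCT116-EHF and HCT116-EV cells turned on replicate 3, which held 34 of the 35 reads of the empty vector line. With all libraries it was -0.22 on the log2 scale (SE 0.65, edgeR adjusted p = 1). Without replicate 3, 1 read remained in 2 HCT116-EV libraries and the ratio of HCT116-EHF to HCT116-EV was 12.4, with a 95% exact counting interval of 2.11 to 502 (edgeR adjusted p = 0.0161). The corresponding ratios were 282 (50.4 to 11136) for HCT116-CDX1 and 1881 (337 to 74319) for HCT116-EHF+CDX1 cells, both in the same direction as with all libraries.

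AGR2, the disulfide isomerase that goblet cells need to fold MUC2 (Entrez 10551, chromosome 7, 16791811 to 16804999), was detected above 2 reads only with both factors present. HCT116-EV libraries held 2, 0 and 0 reads, HCT116-EHF libraries 1, 0 and 0, and HCT116-CDX1 libraries 0, 0 and 2. HCT116-EHF+CDX1 libraries held 508, 455 and 107 reads, or 8.87, 8.63 and 7.39 CPM. All 3 libraries with both factors lay above the 9 others. From the summed reads, the level was 425 times that of HCT116-EV cells (95% exact counting interval 117 to 3511), 1259 times that of HCT116-EHF cells (226 to 49785) and 534 times that of HCT116-CDX1 cells (147 to 4412). The edgeR adjusted p against a 1.5-fold change was 4.95e-06 compared to HCT116-EV, 6.79e-06 compared to HCT116-EHF and 9.03e-07 compared to HCT116-CDX1 cells. AGR2 was tested only because it was high in the line with both factors, so these p-values carry that selection. Neither single-factor line had more than 2 AGR2 reads in a library, so a difference between them and the empty vector line was not detectable at this depth.

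TFF3, the trefoil peptide that goblet cells secrete together with MUC2 (Entrez 7033, chromosome 21, 42311667 to 42315409), was also highest with both factors, at a lower level than AGR2. It had 0 reads in every HCT116-EV and HCT116-CDX1 library and 0, 3 and 2 reads in HCT116-EHF libraries. In HCT116-EHF+CDX1 libraries it had 42, 34 and 8 reads, or 0.734, 0.645 and 0.553 CPM. With the limit of 3 reads per library as the lower level, TFF3 was at least 5.92-fold higher with both factors than with the empty vector (edgeR adjusted p = 0.00129) and at least 8.83-fold higher than with CDX1 alone (edgeR adjusted p = 0.000205). Against HCT116-EHF cells the ratio was 19.8 (95% exact counting interval 8.14 to 62.5, edgeR adjusted p = 0.00742), and the adjusted p was 0.083 without HCT116-EHF replicate 3. It was 0.12 without replicate 1 and 0.0952 without replicate 2 of every line (edgeR). TFF3 was tested only because it was high in the line with both factors, so its p-values carry that selection.

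TFF1, the gastric trefoil peptide (Entrez 7031, chromosome 21, 42362282 to 42366535), had 0 reads in the 9 libraries of the other lines and 3, 1 and 0 reads in HCT116-EHF+CDX1 libraries. This is at or under the limit of 3 reads in every library, and TFF1 was not tested. TFF1 overlaps LOC105372815 in the RefSeq annotation, and the strand setting of the counting is not given in the sources used here. TFF2, the third trefoil peptide, had at most 8 reads in any library.

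MUC2, the main gel-forming mucin of the colon (Entrez 4583, chromosome 11, 1074874 to 1110508), stayed low in all lines. HCT116-EV libraries had 1.12, 0.379 and 2.06 CPM, and HCT116-EHF libraries 1.01, 0.966 and 1.19 CPM. With CDX1 alone the values were 0.723, 0.859 and 0.592 CPM, and with both factors 3.07, 2.96 and 2.28 CPM. The libraries with both factors lay above the 9 others, and those with 1 factor lay within the range of the HCT116-EV libraries. Against HCT116-CDX1 cells MUC2 rose by a log2 fold change of 1.95 (SE 0.42, edgeR adjusted p = 0.00571) in the line with both factors. This call was lost without replicate 1 of every line (edgeR adjusted p = 0.0985). The log2 fold change of 1.16 (SE 0.41, edgeR adjusted p = 0.241) compared to HCT116-EV cells did not pass the test against 1.5-fold, and passed the test against no change at an adjusted p of 0.0466. Without HCT116-EV replicate 3 it was 1.89 with an edgeR adjusted p of 0.00259, and the change compared to HCT116-EHF cells, 1.40 (SE 0.41, edgeR adjusted p = 0.355), then had an adjusted p of 0.0215.

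MUC5AC and MUC5B, the gel-forming mucins of the stomach and airway encoded beside MUC2 on chromosome 11, moved in opposite directions with CDX1. MUC5AC (Entrez 4586, 1157953 to 1201138) had 2, 0 and 0 reads in HCT116-EV and 1, 6 and 8 reads in HCT116-EHF libraries. With CDX1 alone it had 125, 60 and 103 reads, and with both factors 8, 26 and 6. In CPM these were 2.74, 1.52 and 2.65 with CDX1 alone and 0.140, 0.493 and 0.415 with both factors. The CDX1 libraries lay above all others, and those with both factors lay between them and the 2 lines without CDX1. From summed reads the ratio of HCT116-CDX1 to HCT116-EV was 115 (95% exact counting interval 31.4 to 951, edgeR adjusted p = 2.67e-05). MUC5AC was tested only because it was high in HCT116-CDX1 cells, so this p-value carries that selection. Between HCT116-EHF+CDX1 and HCT116-CDX1 cells MUC5AC fell by 2.78 on the log2 scale (SE 0.52, edgeR adjusted p = 0.00144). The ratio of 15.9 (4.12 to 136) for HCT116-EHF+CDX1 over HCT116-EV cells had an edgeR adjusted p of 0.0263, which became 0.102 without HCT116-EV replicate 3, 0.0664 without HCT116-EV replicate 2, 0.124 without replicate 2 and 0.0553 without replicate 3 of HCT116-EHF+CDX1, and 1 by limma voom.

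MUC5B (Entrez 727897, 1223066 to 1262172) was highest in the empty vector line. HCT116-EV libraries had 1.64, 1.28 and 2.72 CPM, and HCT116-EHF libraries 0.479, 0.504 and 0.687 CPM. With CDX1 alone the values were 0.197, 0.126 and 0.232 CPM, and with both factors 0.576, 0.361 and 0.415 CPM. All HCT116-EV libraries lay above all others, HCT116-CDX1 libraries lay below all others, and the 2 lines with EHF overlapped. Compared to HCT116-EV cells MUC5B fell by 1.74 on the log2 scale in HCT116-EHF (SE 0.34, edgeR adjusted p = 0.0178), by 3.35 in HCT116-CDX1 (SE 0.39, edgeR adjusted p = 2.92e-05) and by 2.06 in HCT116-EHF+CDX1 cells (SE 0.36, edgeR adjusted p = 0.0048). Without replicate 3 the values were -1.33 (edgeR adjusted p = 0.0579), -2.96 (edgeR adjusted p = 1.55e-05) and -1.66 (edgeR adjusted p = 0.012), so the call for EHF alone was lost. It was also lost without HCT116-EHF replicate 1 (edgeR adjusted p = 0.0653) or replicate 2 (edgeR adjusted p = 0.0833). The call for both factors was lost with counts thinned to the smallest library (edgeR adjusted p = 0.0528), and without replicate 1 (0.0515) or replicate 2 (0.0518) of every line. MUC5B overlaps MUC5B-AS1 and MIR6744 in the annotation, and reads of overlapping genes could not be told apart without the strand setting.

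MUC12, a large transmembrane mucin of the colon surface (Entrez 10071, chromosome 7, 100969565 to 101018936), had its highest level with CDX1 alone. HCT116-EV libraries were at 1.12, 0.899 and 9.46 CPM and HCT116-EHF libraries at 3.51, 3.49 and 4.70 CPM. HCT116-CDX1 libraries reached 37.3, 23.6 and 22.6 CPM, and libraries with both factors had 1.99, 1.86 and 0.760 CPM. The CDX1 libraries lay above all others, while replicate 3 of HCT116-EV lay above both lines with EHF and the other 2 HCT116-EV libraries lay below HCT116-EHF. MUC12 rose by a log2 fold change of 2.75 (SE 0.66, edgeR adjusted p = 0.00604) from HCT116-EV to HCT116-CDX1 cells. This call was lost without replicate 1 (edgeR adjusted p = 0.111) or replicate 2 (0.0568) of every line. Between HCT116-EHF+CDX1 and HCT116-CDX1 cells MUC12 fell by 4.06 on the log2 scale (SE 0.72, edgeR adjusted p = 0.000701).

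The difference of MUC12 between HCT116-EHF and HCT116-EV cells depended on replicate 3. The log2 fold change was -0.07 (SE 0.65, edgeR adjusted p = 1) with all libraries and 1.98 (edgeR adjusted p = 0.0022) without replicate 3. For both factors against the empty vector it was -1.32 (SE 0.69, edgeR adjusted p = 0.534) with and 0.78 (edgeR adjusted p = 0.58) without replicate 3, and for HCT116-CDX1 cells 4.78 (edgeR adjusted p = 3.42e-10) without it. MUC12 overlaps MUC12-AS1, and its reads carry the same limit on strand.

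MUC1, the transmembrane mucin found on most glandular epithelia (Entrez 4582, chromosome 1, 155185824 to 155192915), was lower in HCT116-CDX1 cells than in the other lines. HCT116-EV libraries had 4.09, 2.93 and 6.51 CPM, and HCT116-EHF libraries 4.57, 4.35 and 4.16 CPM. With both factors the values were 4.30, 4.65 and 4.22 CPM, and with CDX1 alone 1.27, 1.04 and 2.03 CPM. The latter 3 libraries lay below the 9 others, and the other lines overlapped. In HCT116-CDX1 cells MUC1 fell by 1.67 on the log2 scale compared to HCT116-EV cells (SE 0.30, edgeR adjusted p = 0.0021). HCT116-EHF+CDX1 cells lay above HCT116-CDX1 cells by a log2 fold change of 1.61 (SE 0.30, edgeR adjusted p = 0.0031) and differed from HCT116-EV cells by -0.06 (SE 0.28, edgeR adjusted p = 1). The call against HCT116-CDX1 cells was lost without replicate 1 of every line (edgeR adjusted p = 0.067).

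FCGBP, the secreted protein that binds the mucin network (Entrez 8857, chromosome 19, 39863323 to 39934634), was lower in both lines with the EHF plasmid than in HCT116-CDX1 cells. HCT116-EV libraries had 7.11, 8.09 and 29.6 CPM, and HCT116-CDX1 libraries 15.7, 16.3 and 22.6 CPM. With EHF alone the values were 5.96, 5.23 and 5.90 CPM, and with both factors 6.10, 4.93 and 4.98 CPM. All libraries of both lines with EHF lay below those of HCT116-EV and HCT116-CDX1 cells, and the HCT116-EV libraries lay on either side of the CDX1 libraries. Compared to HCT116-CDX1 cells FCGBP fell by 1.68 on the log2 scale in HCT116-EHF (SE 0.44, edgeR adjusted p = 0.0191) and by 1.76 in HCT116-EHF+CDX1 cells (SE 0.44, edgeR adjusted p = 0.0144). The first of these had an edgeR adjusted p of 0.0584 without HCT116-EHF replicate 2 and 0.0627 without HCT116-CDX1 replicate 3. It was at 0.0569 without replicate 1 and 0.0886 without replicate 2 of every line. The second had an edgeR adjusted p of 0.0755 without replicate 2 of every line. No change of FCGBP compared to HCT116-EV passed the test against 1.5-fold with all libraries, with log2 fold changes of -1.42 for HCT116-EHF (edgeR adjusted p = 0.153), 0.26 for HCT116-CDX1 (edgeR adjusted p = 0.889) and -1.50 for HCT116-EHF+CDX1 cells (edgeR adjusted p = 0.106). Without replicate 3 the change with CDX1 alone was 1.26 (edgeR adjusted p = 0.000158) and those with EHF were -0.42 and -0.49 (edgeR adjusted p = 1 each). Without HCT116-EV replicate 1 the latter were -1.75 (edgeR adjusted p = 0.0343) and -1.83 (edgeR adjusted p = 0.0221).

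**Figure D2:**
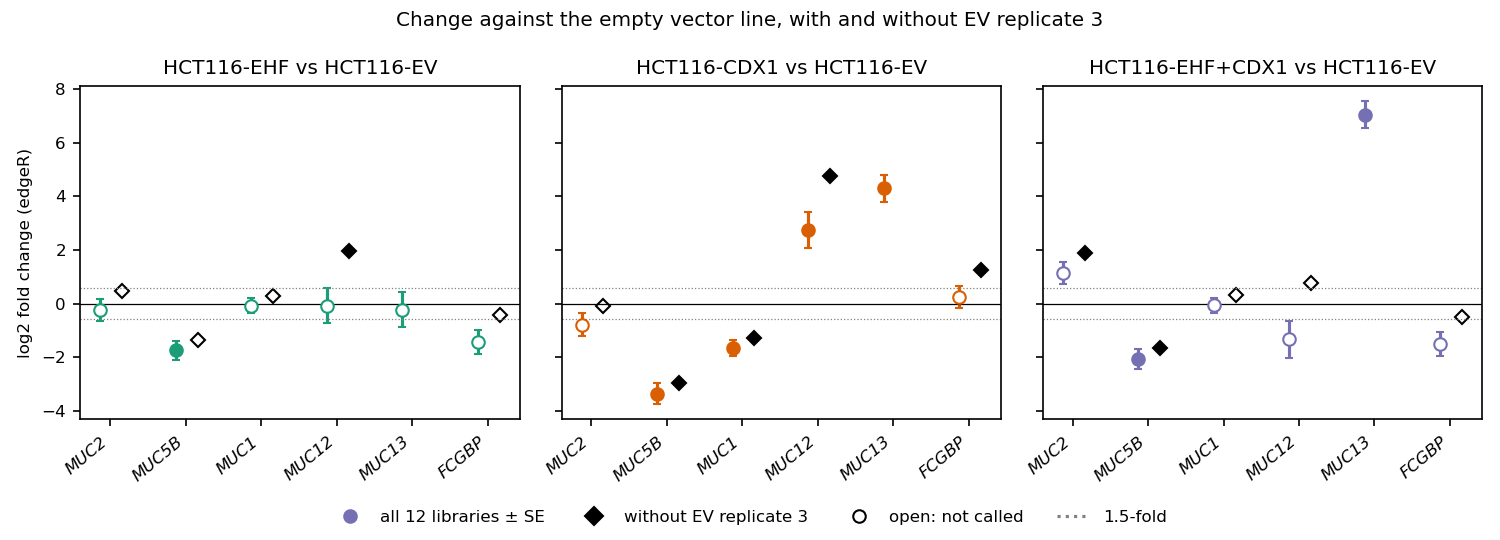
Log2 fold change (edgeR) of 6 members compared to HCT116-EV in each line, with circles for all 12 libraries ± SE, diamonds for the fit without HCT116-EV replicate 3, filled symbols for calls against a 1.5-fold change and dotted lines at 1.5-fold. MUC12 in HCT116-EHF moves from -0.07 to 1.98 and FCGBP in HCT116-CDX1 from 0.26 to 1.26 without replicate 3, and no diamond is drawn for MUC13, which then had 1 read in HCT116-EV cells.

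The other pairs of lines were compared on the same 9 members. HCT116-EHF+CDX1 cells differed from HCT116-EHF cells by 3 higher and 0 lower members, MUC13, AGR2 and TFF3, where the test called 2.68% of all genes, 2.49% higher and 0.189% lower. AGR2 and TFF3 were tested only because they were high in this line, and of the 7 others 1 was called. Against HCT116-CDX1 cells, 5 members were higher and 3 lower, where 41% of all genes were called, 22.3% higher and 18.7% lower. The higher members were MUC2, MUC1, MUC13, TFF3 and AGR2, and the lower members were MUC5AC, MUC12 and FCGBP. Leaving out AGR2, TFF3 and MUC5AC, which were tested only because of these lines, 3 were higher and 2 lower of 6. Between HCT116-EHF and HCT116-CDX1 cells, 2 members, MUC5B and MUC1, were higher and 4, MUC5AC, MUC12, MUC13 and FCGBP, were lower, where 40.3% of all genes were called, 21.2% higher and 19.1% lower. Leaving out MUC5AC, which was tested only because of HCT116-CDX1 cells, 2 were higher and 3 lower of 8. The MUC5B call (log2 fold change 1.61, SE 0.41, edgeR adjusted p = 0.0169) was lost by limma voom (adjusted p = 0.272) and DESeq2 (adjusted p = 0.105), with thinned counts (0.0884) and log2 RPKM values (0.273), and without HCT116-EHF replicate 3 (0.0731) or HCT116-CDX1 replicate 2 (0.0593), as well as without replicate 1, 2 or 3 of every line. Median log2 fold changes over the 9 members were 1.40, 1.61 and -0.93 in these comparisons, against 0.00, 0.04 and 0.02 over all genes. Without the members tested only through a line compared, the medians were 0.02, 1.45 and -0.19. With 3 libraries against 3, an exact permutation test cannot give a p below 0.1, and the calls rest on the spread shared across genes.

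The change with the EHF plasmid in the lines with CDX1 was set against that in the lines without CDX1. The interaction subtracts the log2 fold change between HCT116-EHF and HCT116-EV cells from that between HCT116-EHF+CDX1 and HCT116-CDX1 cells. The test called it for 7 members, 5 positive and 2 negative, and for 38.2% of all genes, 20.2% positive and 18% negative. Of the 7, AGR2 and MUC5AC were tested only because of the line in which they were high, as was TFF3, which was not called. It was 2.19 for MUC2 (SE 0.59, edgeR adjusted p = 0.0185), 3.03 for MUC5B (SE 0.54, edgeR adjusted p = 0.00122) and 1.68 for MUC1 (SE 0.41, edgeR adjusted p = 0.015). For MUC12 it was -3.99 (SE 0.95, edgeR adjusted p = 0.00627), and for MUC13 2.97 (SE 0.77, edgeR adjusted p = 0.0113). The change with the EHF plasmid was thus higher in the lines with CDX1 for MUC1, MUC2 and MUC13, and lower for MUC12. That of MUC5B went from -1.74 without CDX1 to 1.29 with it, and the 1.29 did not pass the test against 1.5-fold (SE 0.42, edgeR adjusted p = 0.0581). For FCGBP the interaction was -0.34 (SE 0.61, edgeR adjusted p = 0.831). The calls for AGR2 and MUC5AC rest on lines near 0 reads, where the fitted size depends on the prior count, and their ratios are those given above.

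The MUC13 interaction did not hold without HCT116-EV replicate 3, where it was -0.71 (edgeR adjusted p = 0.724), or by DESeq2 with all libraries (adjusted p = 0.164), while that of FCGBP was then -1.33 (edgeR adjusted p = 0.00102). Those of MUC2, MUC5B, MUC1 and MUC12 were 1.47, 2.63, 1.32 and -5.98 without it, each past the threshold. On the deposited log2 RPKM values the calls of MUC2 and MUC1 were lost (limma adjusted p = 0.0864 and 0.0591), and that of MUC2 was lost with thinned counts (edgeR adjusted p = 0.0654). Without replicate 1 of every line, the edgeR adjusted p was 0.159 for MUC2, 0.116 for MUC1 and 0.0744 for MUC12. The MUC2 call was also lost without replicate 3 of every line (edgeR adjusted p = 0.0628), and the MUC1 call without replicate 2 of every line (edgeR adjusted p = 0.056). The higher dose of CDX1 and the low endogenous EHF of the comparison line, given above, enter these values, and their part was not tested. Geneticin selection, which differed between the lines with CDX1, cannot be told apart from EHF in these values. The plot of the change with the EHF plasmid, without and with CDX1, gives both values.

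**Figure D3:**
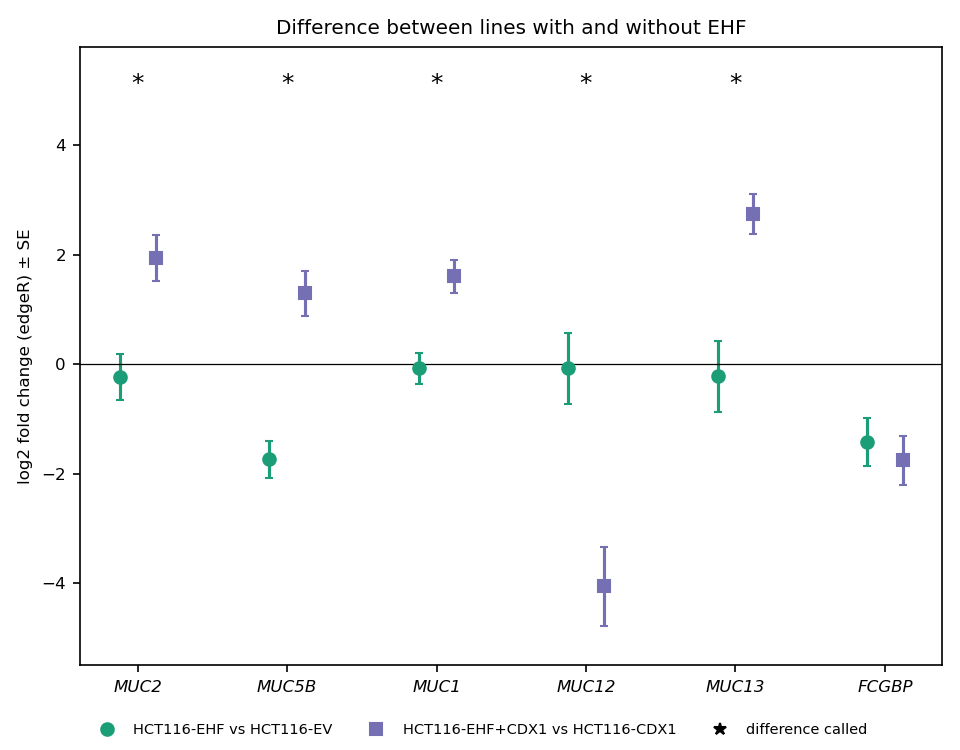
Log2 fold change (edgeR, ± SE) of 6 members for HCT116-EHF over HCT116-EV (circles) and HCT116-EHF+CDX1 over HCT116-CDX1 cells (squares), with stars where their difference was called. The values of MUC5B are -1.74 and 1.29 and those of MUC12 are -0.07 and -4.06, while FCGBP lies at -1.42 and -1.76.

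Levels of different genes were compared per length, on the deposited log2 RPKM scale. In HCT116-EV cells the highest means were 1.26 ± 0.41 for MUC1 and -0.07 ± 1.14 for FCGBP, and the other members lay below -2.7 (SD, n = 3 each). In HCT116-CDX1 cells MUC13 came first at 1.42 ± 0.17, followed by MUC12 at 0.75 ± 0.35 and FCGBP at 0.61 ± 0.24. In HCT116-EHF+CDX1 cells the order was MUC13 at 3.94 ± 0.07, AGR2 at 2.08 ± 0.15, MUC1 at 1.10 ± 0.06 and TFF3 at -1.05 ± 0.27. These were followed by FCGBP at -1.43 ± 0.20, MUC2 at -2.38 ± 0.24, MUC12 at -3.76 ± 0.82, MUC5B at -6.01 ± 0.69 and MUC5AC at -6.84 ± 1.72.

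Related genes of the mucus pathway were read in lists chosen by function. Of 14 goblet cell secreted products, MUC2, FCGBP, AGR2 and TFF3 included, 7 were tested. With both factors 2 rose against the empty vector, the members AGR2 and TFF3, which were tested only because of this line. No other product was called with all libraries. The median log2 fold change was 1.21, against -0.03 over all genes. Without HCT116-EV replicate 3, 4 rose, AGR2 and TFF3 among them, and 0 fell, beside 15.6% of all genes called in that fit against 10.4% with all libraries. Most of the defining goblet products were at or near 0 reads. CLCA1, ZG16, ITLN1, RETNLB and SPINK4 had at most 8, 1, 5, 2 and 6 reads in any library. REG4 had at most 11 reads in any library, and AGR3, the neighbour and paralog of AGR2, had 3 to 29 reads in HCT116-EHF+CDX1 and at most 2 in the other libraries. KLK1, a kallikrein of the list, averaged 1.25 ± 0.351 CPM with the empty vector and 3.12 ± 0.655 CPM with both factors (SD, n = 3 each, edgeR adjusted p = 0.0542).

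Of 12 goblet lineage transcription factors, 11 were tested, and 2 rose with both factors against the empty vector, where 10.4% of all genes were called. With EHF alone 3 rose, beside 8.33% of all genes, and with CDX1 alone 5 rose and 3 fell, beside 44.6%. Those that rose with both factors were FOXA2 and FOXA1, forkhead factors of the endoderm. FOXA2 had 0 reads in all HCT116-EV and HCT116-CDX1 libraries, 0.739 ± 0.0537 CPM with EHF alone and 8.56 ± 0.85 CPM with both factors (SD, n = 3 each). It was at least 6.79-fold and at least 78.7-fold higher in these lines than in HCT116-EV cells (edgeR adjusted p = 0.000109 and 1.78e-06). FOXA1 rose by a log2 fold change of 1.89 (SE 0.29, edgeR adjusted p = 0.00241) with both factors and by 4.10 (SE 0.29, edgeR adjusted p = 4.17e-07) with CDX1 alone, and it also rose with EHF alone, from 1.08 ± 0.634 to 3.29 ± 0.177 CPM (SD, n = 3 each, edgeR adjusted p = 0.0183). In the fit without HCT116-EV replicate 3 the log2 fold changes were 2.57, 4.78 and 2.18 in that order. From CDX1 alone to both factors FOXA1 fell by 2.21 (SE 0.26, edgeR adjusted p = 6.36e-05). The factors that commit cells to the goblet lineage stayed low. ATOH1 was at 0.00842 to 0.351 CPM on average and was not tested, and SPDEF averaged 0.0928 ± 0.0919 CPM with the empty vector, 0.654 ± 0.156 CPM with EHF alone and 0.567 ± 0.139 CPM with both factors (SD, n = 3 each). SPDEF rose with EHF alone by a log2 fold change of 2.50 (SE 0.62, edgeR adjusted p = 0.0402), and its change with both factors, 2.24 (SE 0.64, edgeR adjusted p = 0.0685), did not pass with all libraries and passed without HCT116-EV replicate 3 (edgeR adjusted p = 0.0148). In HCT116-CDX1 cells KLF4, which goblet cells need to mature, rose by 1.39 (SE 0.24, edgeR adjusted p = 0.00221), and XBP1, the unfolded protein response factor of secretory cells, by 1.80 (SE 0.13, edgeR adjusted p = 1.4e-06), but in HCT116-EHF+CDX1 cells their changes were -0.89 (edgeR adjusted p = 0.219) and 0.03 (edgeR adjusted p = 1). KLF4, without HCT116-EV replicate 3, was at 1.85 and XBP1 at 1.98 with CDX1 alone, and at -0.44 and 0.21 with both factors. In that fit 6 factors of the list rose and 3 fell with CDX1 alone, beside 51.1% of all genes. The risers included HES1 (2.72), SPDEF (2.97) and FOXA3 (0.98), and those that fell were GFI1 (-1.16), CREB3L1 (-2.52) and NKX2-2 (-1.29).

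Enzymes that build and fold mucins changed in both directions. Of 21 tested O-glycosylation enzymes, 3 rose and 2 fell with both factors against the empty vector, with a median of 0.14 (8 and 2 without HCT116-EV replicate 3). The share of all genes called was 10.4%, or 15.6% without that replicate. GALNT3 and GALNT5, which start O-glycan chains on mucins, rose by 2.16 (SE 0.24, edgeR adjusted p = 0.000172) and 2.12 (SE 0.42, edgeR adjusted p = 0.00939) on the log2 scale. In the fit without HCT116-EV replicate 3 they rose by 2.63 and 3.15, and GALNT5 was then also called with CDX1 alone (1.24, edgeR adjusted p = 3.17e-05). With all libraries GALNT3 also rose with EHF alone (2.38, edgeR adjusted p = 9.14e-05) and CDX1 alone (2.88, edgeR adjusted p = 2.27e-06). GCNT3, the mucin-type core-branching enzyme, fell by 2.44 (SE 0.24, edgeR adjusted p = 5.69e-05), from 29.5 ± 12.3 to 5.51 ± 0.559 CPM (SD, n = 3 each). GCNT3 also fell by 3.27 (SE 0.25, edgeR adjusted p = 6.3e-06) with EHF alone and fell by 2.26 (SE 0.24, edgeR adjusted p = 2.07e-05) with CDX1 alone. Of 19 folding and granule secretion genes, 3 rose and 1 fell, with a median of 0.11 (3 and 1 without replicate 3), beside the same shares of all genes. ERN2, the stress sensor of the endoplasmic reticulum found in goblet cells, averaged 0.523 ± 0.0798 CPM with the empty vector, 0.768 ± 0.228 CPM with EHF, 0.843 ± 0.221 CPM with CDX1 and 7.75 ± 0.914 CPM with both factors (SD, n = 3 each). It rose by 3.86 on the log2 scale compared to HCT116-EV (SE 0.29, edgeR adjusted p = 2.88e-06) and by 3.29 compared to HCT116-EHF cells (SE 0.27, edgeR adjusted p = 1.88e-05). MARCKS, a substrate of protein kinase C that acts in mucin granule release, rose by 2.27 (SE 0.12, edgeR adjusted p = 4.06e-07), and UNC13D, a granule priming factor, fell by 1.40 (SE 0.25, edgeR adjusted p = 0.00999) with all libraries and by 0.91 (edgeR adjusted p = 0.000242) without HCT116-EV replicate 3. Both also changed with 1 factor. MARCKS rose by 1.95 with EHF and 3.13 with CDX1 (edgeR adjusted p = 2.36e-06 and 7.59e-09), and UNC13D fell by 1.62 and fell by 2.32 (edgeR adjusted p = 0.00393 and 2.62e-05).

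**Figure D4:**
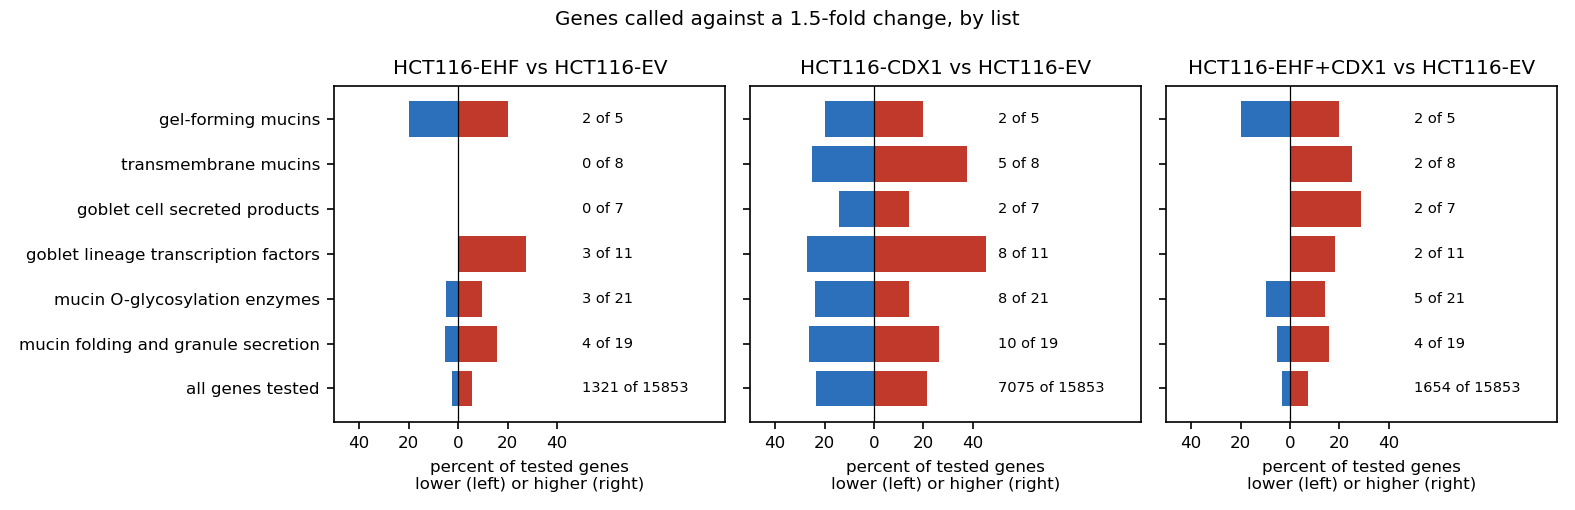
Percent of tested genes called lower (left) or higher (right) against a 1.5-fold change in each line compared to HCT116-EV, for 6 lists and all genes tested, with the number called of the number tested at the right of each bar. In HCT116-EHF+CDX1 cells 2 of 8 transmembrane mucins and 2 of 7 goblet products are called higher, beside 1158 of 15853 genes (7.3%) called higher and 1654 called in either direction. These goblet products, AGR2 and TFF3, were tested only because of this line.

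Among 8 tested transmembrane mucins, MUC13 and MUC20 rose with both factors, MUC20 by 1.77 on the log2 scale (SE 0.37, edgeR adjusted p = 0.0188), with a list median of 0.01. This comparison called 10.4% of all genes. With HCT116-EV replicate 3 left out, 4 rose with both factors (median 0.89) and 4 with EHF alone, where 0 were called with all libraries by edgeR, and MUC20 rose by 2.55 with both factors and by 1.63 with CDX1 alone. In that fit 15.6% of all genes were called with both factors and 13.1% with EHF alone. With CDX1 alone 3 rose and 2 fell with all libraries, and 4 and 2 without that library, beside 44.6% and 51.1% of all genes. MUC4 rose by 2.37 (SE 0.52, edgeR adjusted p = 0.00402), or 4.03 without HCT116-EV replicate 3, which held 127 of the 143 MUC4 reads of that line, beside MUC12 and MUC13, and MUC3A fell by 1.01 (SE 0.08, edgeR adjusted p = 6.68e-05) beside MUC1. Of 5 gel-forming mucins, MUC5AC rose and MUC5B fell with both factors, and MUC19 rose with EHF alone, by 2.46 (SE 0.37, edgeR adjusted p = 0.00187). Without HCT116-EV replicate 3, 3 rose and 1 fell with both factors, where MUC5AC was not called, and MUC19 rose by 3.16 with EHF alone and 2.19 with both factors. MUC4, MUC3A and MUC19 were named after their values were seen.

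Markers of other secretory and absorptive cells were read beside the goblet genes. LYZ, the lysozyme of Paneth cells and leukocytes, averaged 0.133 ± 0.0785 CPM with the empty vector and 18.5 ± 0.816 CPM with both factors (SD, n = 3 each), and rose by 7.02 on the log2 scale (SE 0.36, edgeR adjusted p = 1.12e-07). With CDX1 alone LYZ was called lower (edgeR adjusted p = 0.0246), from at most 9 reads in an HCT116-EV library, but not without HCT116-EV replicate 3 (0.111). The Paneth defensins DEFA5 and DEFA6 had at most 1 and 0 reads. ITLN2, the other of 2 tested Paneth markers, was called higher in every line compared to HCT116-EV. The shares of all genes called were 8.33% with EHF, 44.6% with CDX1 and 10.4% with both factors. Beside 10.4% of all genes, 4 of 5 tested enterocyte markers were called higher with both factors. Among them CDH17, an intestinal cadherin, went from 0.173 ± 0.112 to 31.8 ± 1.53 CPM, VIL1, the microvillus protein villin, from 0.0368 ± 0.0637 to 50.5 ± 2.73 CPM and GPA33, an intestinal surface antigen, from 0.103 ± 0.0574 to 19.0 ± 0.763 CPM (SD, n = 3 each). CDH17, VIL1, GPA33 and LYZ stayed below 0.5 CPM in every library of the other lines. They were tested only because they were high with both factors, so their calls and the LYZ p-value carry that selection. Of 7 epithelial identity genes, 0 were called with both factors by edgeR and 1 rose without HCT116-EV replicate 3, where 15.6% of all genes were called. The 13 enterocyte markers summed to 11.6 to 21.6 CPM with the empty vector, 34.2 to 36.7 with EHF, 89.3 to 120 with CDX1 and 133 to 139 with both factors. With CDX1 alone VIL1, GPA33 and CDH17 averaged only 0.085, 0.0713 and 0.235 CPM. There 1 of the 5 tested markers was called higher, beside 44.6% of all genes, and without HCT116-EV replicate 3 it was CA2 (log2 fold change 2.41). With EHF alone 1 was called higher and 1 lower, beside 8.33% of all genes. Without HCT116-EV replicate 3 KRT20 fell by 2.59 on the log2 scale with EHF alone (edgeR adjusted p = 5.2e-05). It rose by 3.01 with both factors in that fit (edgeR adjusted p = 3.62e-08). The 14 goblet products summed to 10.1, 9.89 and 33.4 CPM with the empty vector, where the last is replicate 3, to 9.33 to 10.1 with EHF, 18.4 to 25.1 with CDX1 and 20.2 to 23.5 with both factors. Of these sums, FCGBP made 29.6 CPM in HCT116-EV replicate 3 and 15.7 to 22.6 CPM with CDX1 alone. With both factors AGR2 made 7.39 to 8.87 CPM and FCGBP 4.93 to 6.10 CPM. Of 11 gastric markers, MUC5AC included, 3 were tested. ANXA10, a gastric annexin, averaged 2.44 ± 0.304 CPM with the empty vector, 17.0 ± 1.86 CPM with CDX1 alone and 0.923 ± 0.446 CPM with both factors (SD, n = 3 each). ANXA10 rose with CDX1 alone (log2 fold change 2.79, SE 0.24, edgeR adjusted p = 2.42e-06) and fell with both factors (-1.28, SE 0.25, edgeR adjusted p = 0.0263). The tested gastric markers did not move together with both factors, where 1 rose (MUC5AC) and 1 fell, with a median of 1.06. Without HCT116-EV replicate 3, MUC6 rose instead of MUC5AC (1.81, edgeR adjusted p = 0.0175). With CDX1 alone 2 of the 3 rose, beside 44.6% of all genes.

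The genes most like the members were found by Pearson's correlation of log2 CPM over the 12 libraries, against all genes whose log2 CPM averaged 1 or more. All points share the same 4 lines and libraries, so these values describe likeness only. MUC13 was most like LMO7 (r = 0.977). For AGR2 the nearest genes were KCNE3 (r = 0.986) and AUTS2 (r = 0.984), and for TFF3 UGT1A10 (r = 0.984) and MX2 (r = 0.984). UGT1A10 shares exons with the other UGT1A genes, which makes its counts uncertain. MUC5AC was most like RINT1 (r = 0.983) and CDKN2AIP (r = 0.977), and MUC12 most like TSGA10 (r = 0.980) and BRWD1 (r = 0.980). The highest values were 0.981 for MUC5B with DGLUCY, 0.975 for MUC1 with WDR35 and 0.912 for MUC2 with TAP2.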

How the data were processed

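The authors aligned reads to GRCh38/hg38 with Subread 2.0.0, kept uniquely mapped reads and counted them on RefSeq exons with featureCounts 2.0.0 (versions from the submitters' processing notes). They deposited raw counts per gene for 12 libraries and log2 RPKM values of 15853 genes, made with limma voom, quantile normalization and exon length. The strand setting of the counting is not given in the sources used here, and reads within mucin repeats that map to several places were lost.

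From the deposited counts, only genes at 0.5 CPM or more (scaled by library size alone) in 3 or more libraries were tested, and the others held 0.0585% of counts. TMM factors of the tested genes were 0.799 to 0.845 in HCT116-CDX1 and 0.973 to 1.09 in the other lines. The quasi-likelihood model of edgeR 4.0.16 in R 4.3.3 was fitted to the 4 lines over all 12 libraries. Calls used glmTreat against a 1.5-fold change with Benjamini-Hochberg adjustment over all tested genes at 0.05, and these adjusted p-values are printed unless stated. Standard errors were derived from the fold change and the quasi-likelihood F (absolute value over the root of F). Where a line had at most 3 reads in every library, folds are bounds against 3 reads per library or ratios of summed reads. Scripts were tested on simulated data.

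The members, related lists and tests were chosen with earlier results of these data known. Named beside the members were EHF, CDX1, for each list the 3 called genes that changed most with both factors against the empty vector (mean log2 CPM of 0 or more), and the nearest patterns, some of which are not reported here. List genes outside this rule were chosen after their values were seen. Alternatives were the test against no change, limma 3.58.1 voom and treat, DESeq2 1.42.0, RLE factors, no filter, only the lines compared, a replicate block, thinned counts, log2 RPKM values and libraries left out. List and member counts without HCT116-EV replicate 3, and member counts without genes that passed the filter through 1 line, were added after the data were seen. Replicate numbers did not pair the libraries. ATAC-seq data are not analysed here.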

Additional observations from a re-analysis of the deposited data

Results flagged for a closer look

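The change with the EHF plasmid differed between lines with and without CDX1 for 7 members, of which MUC5AC and AGR2 were near 0 reads in some lines and are not sized here. Both were tested only because of the line in which they were high. For the other 5 the values came from the test of the difference itself (the edgeR interaction against a 1.5-fold change), as 2.19 on the log2 scale for MUC2, 3.03 for MUC5B, 1.68 for MUC1, -3.99 for MUC12 and 2.97 for MUC13. The test called 38.2% of all genes, so calls were common. For MUC13 the call was lost by DESeq2 (adjusted p = 0.164), and the value rests on HCT116-EV replicate 3, which held 34 of the 35 reads of that line, and was -0.71 without it. On the deposited log2 RPKM values the calls of MUC2 and MUC1 were lost (limma adjusted p = 0.0864 and 0.0591), as they were without replicate 1 of every line (edgeR adjusted p = 0.159 and 0.116). The value of MUC12 grew to -5.98 without HCT116-EV replicate 3, and its call was lost without replicate 1 of every line (edgeR adjusted p = 0.0744). CDX1 was at 525 CPM in the line with CDX1 alone and 5419 CPM in the line with both factors, and its part in these differences was not tested. Geneticin selection, described for the line with both factors and not for CDX1 alone, cannot be told apart from EHF there.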

How the results depend on the processing

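The number of members called compared to HCT116-EV with EHF alone, 1 as reported, was 2 by the edgeR test against no change and 0 by DESeq2, with only the lines compared and with counts thinned to the smallest library, and ranged from 0 to 2 when libraries were left out (2 higher and 0 lower without HCT116-EV replicate 3, in place of 0 and 1). With both factors it was 5 as reported, 3 with thinned counts and 3 to 6 with libraries left out (3 without replicate 2 of every line). Between both factors and EHF alone 5 members were called in place of 3 with only the lines compared (2 to 4 with libraries left out). The counts between EHF alone and CDX1 alone and for the interaction fell to 2 of 6 and 3 of 7 without replicate 1 of every line, and had highest values of 6 and 7. The other alternatives kept these counts within 1.5 times. The interaction could not be given with only the lines compared. Values near 0 changed sign. With thinned counts MUC2 was at 0.19 and MUC12 at 0.083 for EHF alone against the empty vector, and MUC1 at -0.039 between both factors and EHF alone. With log2 RPKM values MUC12 was at 0.59 and MUC13 at 0.32 for EHF alone, and MUC1 at -0.022 between both factors and EHF alone. MUC13 was at 0.088 by DESeq2 and MUC12 at 0.14 by limma voom for EHF alone. With the replicate number as a block, MUC12 was at 0.16 for EHF alone, MUC1 at 0.025 for both factors against the empty vector, and MUC5AC there and TFF3 between both factors and EHF alone lost their calls. Same-numbered libraries had correlations of deviations from -0.065 to 0.080 over 18 pairs, so the block tests no pairing. With libraries left out, ranges that crossed 0 were -0.62 to 0.49 (MUC2), -0.30 to 0.33 (MUC1), -0.50 to 1.98 (MUC12) and -0.61 to 3.45 (MUC13) for EHF alone. They were -1.28 to 0.051 (MUC2) and -0.074 to 1.26 (FCGBP) for CDX1 alone, and -0.31 to 0.34 (MUC1) and -1.91 to 0.92 (MUC12) for both factors against the empty vector. They were -0.027 to 0.065 for MUC1 between both factors and EHF alone, and -0.71 to 3.36 for the MUC13 interaction. The cause was not tested. Totals per library of 13523007 or more limit MUC5AC, TFF3, AGR2 and TFF1 to the bounds and intervals given.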
